A study of Mus musculus with 23 samples.

Results

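The genes described here are 10 genes of the intestinal stem cell and its Wnt response, *Lgr5*, *Olfm4*, *Ascl2*, *Smoc2*, *Prom1*, *Axin2*, *Rnf43*, *Tnfrsf19*, *Sox9* and *Cd44*, measured in whole ileum of mice given a pregnane X receptor (PXR) ligand. They were chosen by name, as stem cell or Wnt target genes found in the gene name column of the scanner files. The array carried 23 probes for these 10 genes, and 21 of them were among the 37161 probes of the deposited expression table, which covered 17574 named genes in all. The remaining probes, the second of *Ascl2* and the third of *Tnfrsf19*, were above background on 2 and 1 of the 23 arrays. Where a gene had several probes, the brightest was taken first and the others are given beside it.

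Stem cells at the base of the crypts, called crypt base columnar cells, divide continuously and give rise to all cell types of the intestinal epithelium. They are kept by Wnt signals, in which R-spondins bind LGR receptors and so hold Frizzled receptors at the surface, and by factors from the neighbouring Paneth cells and the stroma. Wnt target genes include negative feedback genes such as *Axin2* and *Rnf43*, whose transcript levels are widely used as readouts of the pathway.

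Pregnenolone 16α-carbonitrile (PCN), a steroid that activates rodent PXR, was given to male wild-type (WT) mice and to male mice without PXR (*Pxr*-/-, gene *Nr1i2*). Doses of 100 mg/kg in corn oil were injected into the abdomen daily for 4 days, and controls (CONT) received corn oil, so that every animal was injected. All mice were killed at zeitgeber time 6, fed per the labels, 6 h after the last injection. WT mice were C57BL/6J, bought at 6 weeks of age and acclimatised for 2 weeks. *Pxr*-/- mice lacked the receptor in all tissues, had been backcrossed to the same strain and were bred in house, and their age was not given in the sources used here. Genotype and origin therefore cannot be told apart in any comparison of WT with *Pxr*-/-. Each group had been allocated 6 mice, and WT PCN had 5 arrays where WT CONT, *Pxr*-/- CONT and *Pxr*-/- PCN had 6 apiece, with 1 array per mouse, and p-values reflect the spread between these arrays. Because whole tissue was used, fewer cells of a type and less RNA per cell cannot be told apart.

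Values are log2 signals of the deposited table, and differences are log2 differences from a limma fit of all 23 arrays, with Benjamini-Hochberg adjusted p over all probes. To be called, a difference needed both an adjusted p no higher than 0.05 and a fold change above 1.5. Signals of different probes are not comparable as amounts of transcript, since each probe binds with its own strength, so levels are compared between groups and never between genes.

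The labels were checked against the target of the treatment. *Cyp3a11*, a cytochrome P450 induced through PXR, rose with PCN in WT by 3.53 (SE 0.324, adjusted p 1.49e-06) and differed by -0.048 (SE 0.308, adjusted p 0.952) in *Pxr*-/-. The *Nr1i2* probe did not separate the genotypes, *Pxr*-/- CONT minus WT CONT being -0.41 (SE 0.146, adjusted p 0.334), and whether it lies in the deleted part was not analysed here. The ileal markers *Fabp6* and *Slc10a2* were above background on all arrays, as were all 8 Paneth cell, all 6 goblet cell and all 8 enterocyte markers. 3 hepatocyte markers were also above background on all 23 arrays, at mean log2 levels over the list of 6.46 to 7.73. Between 60.9% and 67.3% of probes per array were above background, and the median spot signal was 74 to 106.5. A pair of arrays stood apart in genes of the proximal colon. The mean log2 level of *Car1* and *Car4* was 11.81 in *Pxr*-/- CONT replicate 3 and 12.88 in *Pxr*-/- PCN replicate 3, against 8.41 to 10.12 on the other 21 arrays, and *Aqp8*, the third marker of this list, was above background on 2 of 23 arrays. Called differences of niche and crypt genes and the larger member differences in *Pxr*-/- are also given without these arrays.

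The probes decide which part of a transcript was read, so the probes of the genes the results turn on are shown first, each as the first 30 of its 60 bases, 5′ to 3′. The positions, in build mm9 coordinates taken from the scanner files, span the whole probe. *Axin2* probe 1 lay at chr11:108811980-108812039, plus strand, and began at base 4142 of its transcript, and probe 2 lay at chr11:108803927-108803986, plus strand, from base 1971. *Tnfrsf19* probe 1 lay at chr14:61582948-61583007, minus strand, from base 4302, and probe 2 at chr14:61615452-61615511, minus strand, from base 1140. *Lgr5* probe 1 lay at chr10:114887403-114887462, minus strand, from base 4618, and probe 2, designed on another transcript of the gene, at chr10:114899782-114899841, minus strand. *Ascl2* probe 1 lay at chr7:150152734-150152793, minus strand, from base 1545, and *Smoc2* probe 1 at chr17:14541664-14541723, plus strand, from base 2698.
Axin2 probe 1: ttctactttagactgtaaattatgcattat
Axin2 probe 2: tcctgggggaacagattattattgctactc
Tnfrsf19 probe 1: aagccaggacaagatggaggagacaaggac
Tnfrsf19 probe 2: aaactggttggttttcaagacatggagtgt
Lgr5 probe 1: catgtaaatacgtagtgcttgtaaatagat
Lgr5 probe 2: gcaccttttgctttccagagatttgtctta
Ascl2 probe 1: ggccagtgtgggaaccctgctgttgcaaag
Smoc2 probe 1: gctcatgtcaatgctgtctacaaacgagta

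In the reference promoter table (RefSeq, build GRCm38.p6), 7 of the 10 genes had windows, 10 in all, of the 250 bases before a transcript start. The core letters bound by TCF/LEF factors, the DNA-binding partners of β-catenin, were searched as CTTTGAT or CTTTGAA on both strands. They were found in 1 of the 10 windows, that of a *Tnfrsf19* start (chr14:61037988-61038237, minus strand), and in 7.48% of all 32851 windows (3.21% for CTTTGAT and 4.46% for CTTTGAA). A match is a run of letters and not a measured binding site. The window is shown because it is the one with a match, which is in capitals.
Tnfrsf19 promoter: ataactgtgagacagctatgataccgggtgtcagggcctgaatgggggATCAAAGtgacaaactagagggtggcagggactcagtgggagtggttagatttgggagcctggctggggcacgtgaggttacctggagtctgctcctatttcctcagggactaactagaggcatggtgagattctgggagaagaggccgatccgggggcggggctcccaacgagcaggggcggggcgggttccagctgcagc

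None of the 10 genes was called in any comparison. With PCN in WT, limma called 0 of 10, against 1.05% of all named genes, and 2 of 10 had an unadjusted p of at most 0.05, against 14.9%. With PCN in *Pxr*-/-, 0 of 10 were called against 1.49%, and 2 of 10 had such an unadjusted p against 23.3%. With PCN averaged over both genotypes, 0 of 10 were called against 1.5%, and 4 of 10 had such a p against 29.5%. The counts for *Pxr*-/- CONT minus WT CONT were 0 of 10 called against 0.228%, and 2 of 10 against 10.6% by unadjusted p. For *Pxr*-/- PCN minus WT PCN, 0 of 10 were called against 0.541%, with 0 of 10 against 8.44% by unadjusted p. For the interaction, which is the PCN difference in *Pxr*-/- minus that in WT, 0 of 10 were called against 0.119%, with 0 of 10 against 5.13% by unadjusted p. All of these counts of called genes were 0 as well without the 2 arrays high in colon markers. The 95% intervals of their single-gene differences had half-widths of 0.21 to 0.46 for PCN in WT.

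The signs of the differences varied between comparisons. With PCN in WT, 8 of 10 genes were lower and the median log2 difference was -0.13, against -0.019 over all named genes, while in *Pxr*-/- 6 of 10 were higher and the median was 0.043. The median of *Pxr*-/- CONT minus WT CONT was -0.17, with 9 of 10 genes lower, against -0.0048 over all named genes, and under PCN it was 0.020, with 4 of 10 lower. Averaged over genotypes the PCN median was -0.052. The interaction had the median furthest from 0, 0.26 with 9 of 10 genes positive, against 0.015 over all named genes, and none passed. The median level of *Lgr5*, *Ascl2*, *Axin2*, *Sox9*, *Tnfrsf19* and *Rnf43* was highest in WT CONT among the 4 groups, and that of the other genes was not. These comparisons share control arrays, and the sign counts describe these arrays only.

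**Figure D1:**
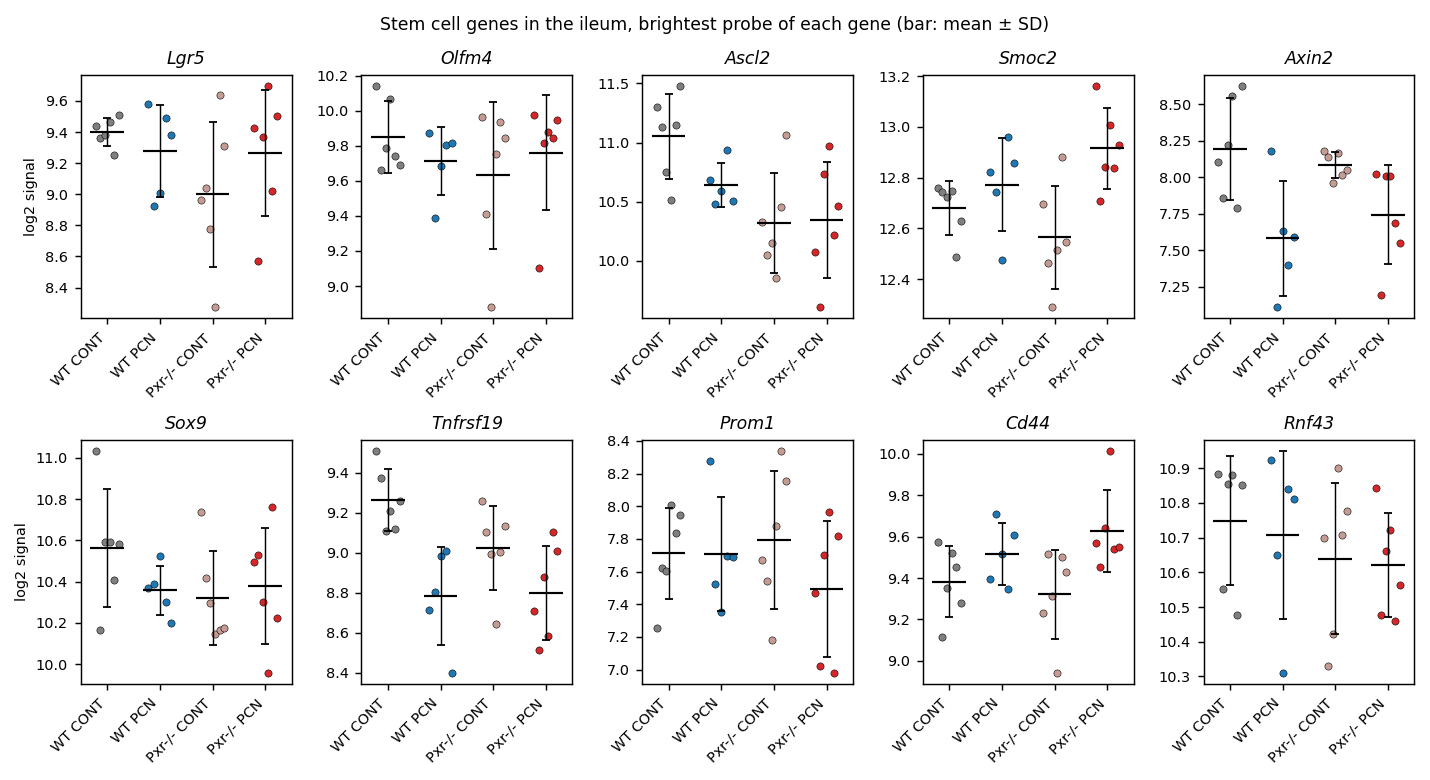
Log2 signal (vertical axis) of the brightest probe of each of the 10 stem cell and Wnt target genes on each array, by group, with the group mean and SD. Compared groups overlap in the other panels, and in that of *Tnfrsf19* all 5 WT PCN arrays (8.40 to 9.01) lie under all 6 WT CONT arrays (9.11 to 9.51).

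The crypt base markers are described first. *Lgr5* encodes an R-spondin receptor and defines the crypt base columnar cell. Its log2 signal had lowest, median and highest values of 9.25, 9.41 and 9.51 in WT CONT, 8.27, 8.9996 and 9.64 in *Pxr*-/- CONT and 8.57, 9.40 and 9.70 in *Pxr*-/- PCN, and the 5 WT PCN values were 8.93, 9.01, 9.38, 9.49 and 9.58. WT CONT was tight and *Pxr*-/- CONT wide, with 5 of 6 *Pxr*-/- CONT arrays under the WT CONT mean, and the groups overlapped. The *Pxr*-/- CONT minus WT CONT difference was -0.40 (SE 0.191, p 0.0465, adjusted p 0.539), and -0.36 without the 2 arrays high in colon markers. Probe 2, at the lower signals of 7.38 to 8.30, gave -0.27 (SE 0.126, p 0.0416, adjusted p 0.527).

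PCN was accompanied by opposite signs of *Lgr5* in the 2 genotypes, none past the threshold. The difference was -0.12 (SE 0.200, adjusted p 0.882) in WT and 0.26 (SE 0.191, adjusted p 0.468) in *Pxr*-/- by probe 1, the latter 0.20 without the 2 arrays high in colon markers. By probe 2 it was -0.13 (SE 0.133, adjusted p 0.784) in WT and 0.36 (SE 0.126, p 0.0100, adjusted p 0.116) in *Pxr*-/-, with an interaction of 0.48 (SE 0.183, p 0.0154, adjusted p 1.00). The probe 1 interaction of 0.39 had a 95% interval of -0.18 to 0.96.

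*Ascl2*, the basic helix-loop-helix transcription factor that specifies the stem cell state, gave the largest difference of the 10 genes in any 2-group comparison. Its lowest, median and highest log2 signals were 10.51, 11.14 and 11.48 in WT CONT and 9.85, 10.24 and 11.06 in *Pxr*-/- CONT. The 5 WT PCN values were 10.48, 10.51, 10.59, 10.69 and 10.94, and *Pxr*-/- PCN had 9.61, 10.34 and 10.97. WT CONT was the high group, and the other groups lay lower with overlap, 5 of 6 *Pxr*-/- CONT arrays falling under the lowest WT CONT array. The *Pxr*-/- CONT minus WT CONT difference was -0.74 (SE 0.212, p 0.00214, adjusted p 0.183), which did not pass, with -1.06 within wash batch 1 and -0.41 within wash batch 2 and -0.71 (adjusted p 0.272) without the 2 arrays high in colon markers. PCN in WT gave -0.41 (SE 0.223, p 0.0785, adjusted p 0.495) and PCN in *Pxr*-/- gave 0.030 (SE 0.212, adjusted p 0.957).

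Paneth cell markers varied on the same *Pxr*-/- CONT arrays. The 8 genes measured from the Paneth list were *Lyz1*, *Mmp7*, *Ang4*, *Itln1*, *Defa24*, *Defa21*, *Pla2g2a* and *Guca2b*. Over these the mean log2 level ran from 15.40 to 15.90 in WT CONT, 15.34 to 15.90 in WT PCN, 14.77 to 15.89 in *Pxr*-/- CONT and 15.40 to 16.07 in *Pxr*-/- PCN. The lowest mean, 14.77, was on *Pxr*-/- CONT replicate 3, an array high in colon markers, and the differences of this list are given with all 23 arrays. The lowest *Lgr5* value, 8.27, was on *Pxr*-/- CONT replicate 4, where the Paneth mean was 14.80, and the highest, on *Pxr*-/- PCN replicate 4, was beside a Paneth mean of 15.89. In *Pxr*-/- CONT minus WT CONT, 0 of 8 Paneth markers were higher, the median log2 difference was -0.27, and limma called 0 with 3 passing by unadjusted p. With PCN, 8 of 8 Paneth markers were higher in *Pxr*-/- (median 0.39) and 3 of 8 in WT (median -0.0086), and limma called 0 of them, an unadjusted p no higher than 0.05 being found for 2 in *Pxr*-/- and 0 in WT. Over all named genes such a p was found for 10.6% in *Pxr*-/- CONT minus WT CONT. With PCN it was found for 23.3% in *Pxr*-/- and 14.9% in WT. The part of Paneth cells in the *Lgr5* and *Ascl2* values was not tested.

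*Smoc2*, a secreted matricellular protein enriched in crypt base cells and also made by stromal cells, had its highest group mean in *Pxr*-/- PCN. Its log2 signals were 12.29, 12.53 and 12.88 in *Pxr*-/- CONT and 12.71, 12.89 and 13.16 in *Pxr*-/- PCN (lowest, median and highest), with 12.49, 12.73 and 12.76 in WT CONT, and the WT PCN values were 12.48, 12.74, 12.82, 12.86 and 12.96. 1 of 6 *Pxr*-/- CONT arrays lay above the lowest *Pxr*-/- PCN array. The PCN difference in *Pxr*-/- was 0.35 (SE 0.0972, adjusted p 0.0463), past the adjusted p threshold, which 5.17% of all named genes passed in this comparison, but short of the fold of 1.5. In WT it was 0.091 (SE 0.102, adjusted p 0.800), with an interaction of 0.26 (SE 0.141, adjusted p 1.00). Probes 2 and 3 gave 0.24 (SE 0.107, adjusted p 0.224) and 0.36 (SE 0.122, adjusted p 0.103) in *Pxr*-/-. The adjusted p was at most 0.05 in 6 of 23 fits that left out 1 array (0.0223 to 0.123) and in 4 of 14 other settings, and with the replicate number as a block it was 0.0527. Without the 2 arrays high in colon markers the difference was 0.31 (adjusted p 0.0978), and it was 0.26 within wash batch 1 and 0.44 within wash batch 2.

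*Olfm4* and *Prom1* complete the crypt base markers. *Olfm4*, which encodes a secreted glycoprotein of crypt base cells, ranged over 8.88 to 10.14 on the 23 arrays, and the mean of WT CONT was 9.85 ± 0.21 (SD, n = 6), against 9.71 ± 0.19 on the 5 arrays of WT PCN. The *Pxr*-/- means were 9.63 ± 0.42 without and 9.76 ± 0.33 with PCN (n = 6 each). The medians of the 4 groups lay between 9.76 and 9.86, and single low arrays in the *Pxr*-/- groups (8.88 and 9.10) widened the spread. The value of 8.88 was on *Pxr*-/- CONT replicate 3, an array high in colon markers. The PCN difference of *Olfm4* was -0.14 (SE 0.177, adjusted p 0.841) in WT and 0.13 (SE 0.168, adjusted p 0.713) in *Pxr*-/-, the latter -0.032 without the 2 arrays high in colon markers. *Prom1*, the membrane glycoprotein CD133, is present in dividing progenitor cells as well as stem cells. All 3 of its probes had negative PCN differences in *Pxr*-/-, of -0.30 (SE 0.203, adjusted p 0.435), -0.33 (SE 0.125, adjusted p 0.142) and -0.24 (SE 0.0911, adjusted p 0.145), while in WT they were -0.0049, -0.0031 and -0.13. Without the 2 arrays high in colon markers probe 1 gave -0.46 (adjusted p 0.226) in *Pxr*-/-.

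The Wnt feedback and target genes come next. *Axin2* encodes a scaffold of the complex that degrades β-catenin and is transcribed in response to Wnt. Its log2 signals were 7.79, 8.16 and 8.63 in WT CONT, 7.96, 8.09 and 8.18 in *Pxr*-/- CONT and 7.19, 7.85 and 8.02 in *Pxr*-/- PCN (lowest, median and highest), and the 5 WT PCN values were 7.11, 7.40, 7.59, 7.63 and 8.18. Both PCN groups reached lower than their controls, and both overlapped them, in WT through 1 PCN array at 8.18, which is replicate 1. PCN gave -0.61 (SE 0.179, p 0.00245, adjusted p 0.108) in WT and -0.34 (SE 0.170, p 0.0584, adjusted p 0.275) in *Pxr*-/-, neither past the threshold. Without WT PCN replicate 1 the difference in WT was -0.76 with an adjusted p of 0.0262, which made *Axin2* the 1 called member of that fit.

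Averaged over genotypes, the *Axin2* difference with PCN was -0.48 (SE 0.124, adjusted p 0.0187) and passed the adjusted p threshold but not the fold of 1.5. In this comparison 12.2% of all named genes passed by adjusted p alone, 5.86% of all being lower, and *Axin2* and *Tnfrsf19* were the 2 of 10 members that did. The adjusted p of *Axin2* was 0.00496 to 0.0396 in all 23 fits that left out 1 array and at most 0.05 in 10 of 13 other settings, with -0.66 within wash batch 1 and -0.30 within wash batch 2. Without the 2 arrays high in colon markers it was -0.51 (adjusted p 0.0207). Probe 2, in an earlier part of the transcript, gave -0.28 (SE 0.104, adjusted p 0.0970) in the same direction. The genotype comparison gave -0.11 (SE 0.170, adjusted p 0.938) in CONT, and the interaction was 0.27 (SE 0.247, adjusted p 1.00).

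*Tnfrsf19* (Troy), a Wnt target that encodes a receptor of the tumour necrosis factor family and dampens Wnt signalling in stem cells, had a like PCN difference by its brightest probe. The WT CONT signals were 9.11, 9.23 and 9.51 (lowest, median and highest) and the WT PCN values were 8.40, 8.71, 8.81, 8.98 and 9.01. *Pxr*-/- CONT had 8.64, 9.05 and 9.26 and *Pxr*-/- PCN had 8.52, 8.79 and 9.10. The WT groups did not overlap, the 1 such case among the 10 brightest probes and 4 two-group comparisons, where 2.7% of all probes did not overlap. In the other comparisons none of the 10 did, against 2.67% of all probes for PCN in *Pxr*-/-, 1.12% for genotype in CONT and 1.11% under PCN. PCN gave -0.48 (SE 0.127, p 0.000957, adjusted p 0.0640) in WT, -0.22 (SE 0.121, adjusted p 0.314) in *Pxr*-/- and -0.35 (SE 0.0876, adjusted p 0.0142) averaged over genotypes, the last past the adjusted p threshold but not the fold.

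The averaged *Tnfrsf19* difference kept an adjusted p of 0.0053 to 0.0286 in the fits that left out 1 array and passed in 11 of 13 other settings, with -0.26 within wash batch 1 and -0.41 within wash batch 2, and -0.36 (adjusted p 0.0233) without the 2 arrays high in colon markers. The second probe did not share it. That probe, from base 1140 of the transcript rather than base 4302, gave -0.037 (SE 0.0644, adjusted p 0.779) with PCN averaged over genotypes. It gave -0.25 (SE 0.0887, p 0.00956, adjusted p 0.331) for *Pxr*-/- CONT minus WT CONT, near the -0.24 (SE 0.121, adjusted p 0.585) of probe 1.

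**Figure D2:**
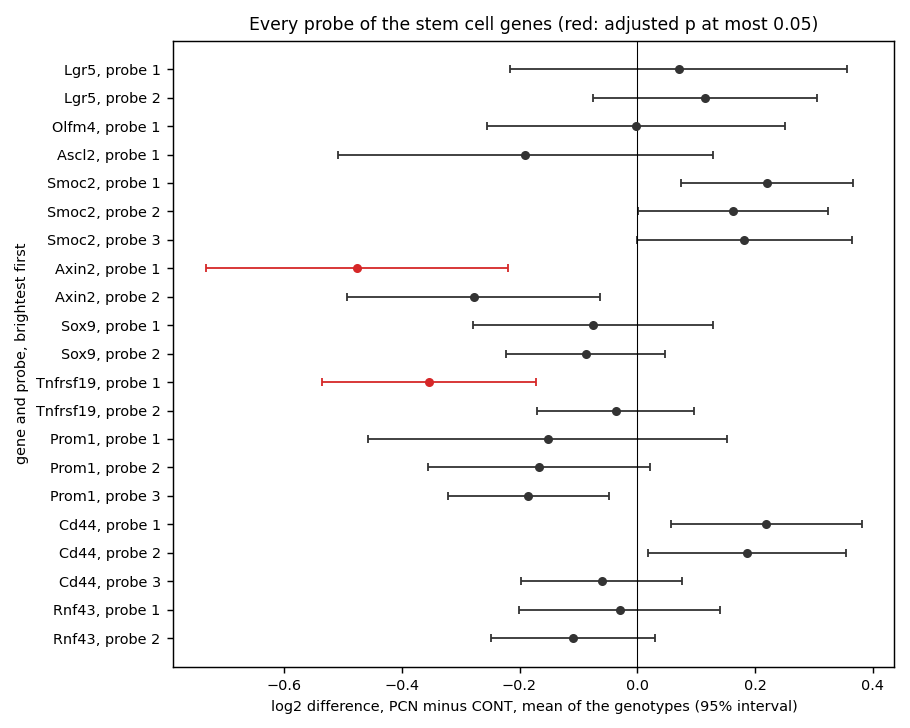
Log2 difference with PCN averaged over genotypes (horizontal axis, with 95% intervals) for all 21 probes of the 10 genes, brightest probe of each gene first. The brightest probes of *Axin2* (-0.48) and *Tnfrsf19* (-0.35) lie furthest to the left, and the second *Tnfrsf19* probe lies at -0.037.

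Markers of dividing cells had negative differences on the same arrays. Of 14 such genes, 0 were higher with PCN averaged over genotypes, the median log2 difference was -0.24, and limma called 0 of them, with 9 passing by unadjusted p and 3 (*Mcm5*, *Mki67* and *Top2a*) passing by adjusted p alone. Of all named genes, 29.5% passed by unadjusted p in this comparison and 1.5% were called. By adjusted p alone 12.2% passed, 5.86% of all being lower. The mean log2 level over the list ran from 10.52 to 10.92 in WT CONT, 10.43 to 10.68 in WT PCN, 10.50 to 11.28 in *Pxr*-/- CONT and 10.30 to 10.88 in *Pxr*-/- PCN. Of 6 goblet cell markers, 6 were lower by adjusted p in this comparison, 1 of them (*Agr2*) called, with a median of -0.42 and a mean log2 level of 17.05 to 17.37 in WT CONT, 16.59 to 17.03 in WT PCN, 16.97 to 17.29 in *Pxr*-/- CONT and 16.22 to 16.91 in *Pxr*-/- PCN. The part of these cells in the *Axin2* and *Tnfrsf19* values was not tested.

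*Rnf43*, *Sox9* and *Cd44* passed no adjusted threshold in any comparison. *Rnf43*, a membrane ubiquitin ligase that removes Frizzled receptors, had a PCN difference of -0.042 in WT (95% interval -0.29 to 0.21) and -0.018 in *Pxr*-/- (-0.25 to 0.22). *Sox9*, a transcription factor of crypt base and Paneth cells, had -0.21 (SE 0.143, adjusted p 0.630) and 0.057 (SE 0.136, adjusted p 0.860). *Cd44*, the hyaluronan receptor that is a Wnt target in crypts and is also carried by leukocytes and stroma, had 0.13 (SE 0.113, adjusted p 0.718) in WT and 0.31 (SE 0.108, p 0.00957, adjusted p 0.114) in *Pxr*-/-. The *Pxr*-/- PCN signals of *Cd44*, 9.45, 9.56 and 10.01, lay above most of the *Pxr*-/- CONT signals, 8.94, 9.37 and 9.52, with overlap, and without the 2 arrays high in colon markers the difference was 0.30 (adjusted p 0.182). By *Cd44* probe 2 the PCN difference was 0.18 (SE 0.117, adjusted p 0.608) in WT and 0.20 (SE 0.112, adjusted p 0.340) in *Pxr*-/-. By *Cd44* probe 3 it was -0.12 (SE 0.0951, adjusted p 0.685) in WT and -0.0014 (SE 0.0905) in *Pxr*-/-. Probe 2 gave -0.17 in WT and -0.0052 in *Pxr*-/- for *Sox9*, and -0.086 and -0.13 for *Rnf43*.

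A pair of leukocyte genes rose with PCN in both genotypes. The mean log2 level over 10 leukocyte markers, 9 of which were above background on all arrays, ran from 9.53 to 9.98 in WT CONT, 10.22 to 11.30 in WT PCN, 9.56 to 10.11 in *Pxr*-/- CONT and 10.27 to 10.95 in *Pxr*-/- PCN. With PCN, 7 of 10 were higher in WT (median 0.41) and 7 of 10 in *Pxr*-/- (median 0.37). The single differences reached from -0.12 to 2.16 in WT and from -0.27 to 2.90 in *Pxr*-/-. Limma called 2 of 10 higher with PCN in WT and 2 in *Pxr*-/-, where 1.05% and 1.49% of all named genes were called. In both cases these were *S100a8* and *S100a9*, the neutrophil calprotectin subunits, which rose by 2.16 (SE 0.460, adjusted p 0.0162) for *S100a9* in WT and 2.90 (SE 0.438, adjusted p 0.00108) in *Pxr*-/-. The part of leukocytes in the *Cd44* values was not tested.

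**Figure D3:**
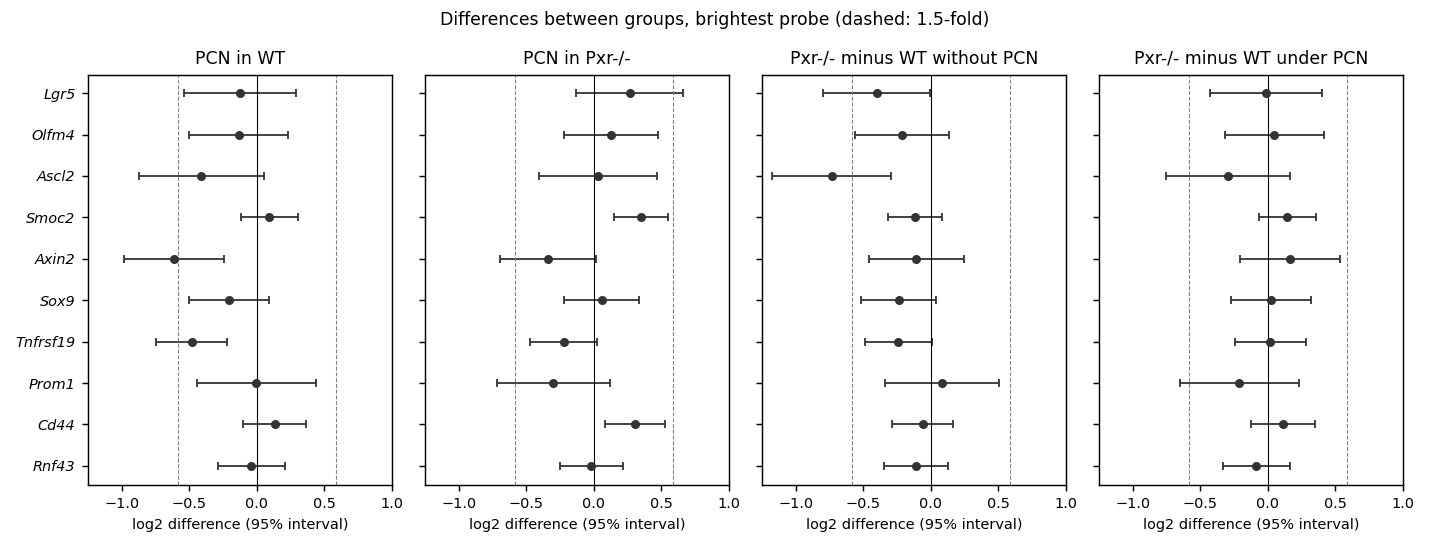
Log2 differences of the 10 genes (brightest probe, 95% intervals) for PCN in each genotype and for genotype without and under PCN, with dashed lines at 1.5-fold. Most intervals include 0, and the estimate furthest from 0 is *Ascl2* in *Pxr*-/- CONT minus WT CONT, at -0.74.

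Some genes of the surrounding niche were called. Of 18 ligands and antagonists of the crypt niche, 2 rose with PCN in WT, 3 rose and 1 fell in *Pxr*-/-, where 1.05% and 1.49% of all named genes were called. The list's median was 0.052 and 0.050, against -0.019 and 0.00089 over all named genes. *Rspo3*, the stromal R-spondin that binds LGR5, had log2 signals of 8.66, 8.94 and 9.14 in WT CONT (lowest, median and highest), 9.22, 9.34, 9.59, 9.68 and 9.95 on the 5 WT PCN arrays, 8.56, 8.72 and 9.02 in *Pxr*-/- CONT and 9.43, 9.57 and 9.98 in *Pxr*-/- PCN. It rose by 0.65 (SE 0.127, adjusted p 0.00724) in WT and by 0.91 (SE 0.121, adjusted p 0.000318) in *Pxr*-/-, with an interaction of 0.25 (SE 0.175, adjusted p 1.00). Without WT PCN replicate 4, the array with the highest fibroblast level of the WT arrays, *Rspo3* in WT was no longer called, at 0.55 (adjusted p 0.0313), its fold falling under 1.5.

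*Grem1*, a secreted antagonist of bone morphogenetic proteins made by stromal cells next to the crypts, rose by 0.89 (SE 0.160, adjusted p 0.00360) in WT and by 0.64 (SE 0.153, adjusted p 0.0232) in *Pxr*-/-. The call in *Pxr*-/- was lost when any 1 of *Pxr*-/- CONT replicates 5 and 6 and *Pxr*-/- PCN replicates 1, 2 and 5 was left out, with adjusted p of 0.0147 to 0.0643 over the 23 fits that left out 1 array. *Wnt4*, a Wnt ligand, was lower in *Pxr*-/- CONT than in WT CONT, with a difference of -0.71 (SE 0.108, adjusted p 0.00242), and rose with PCN in *Pxr*-/- by 0.94 (SE 0.108, adjusted p 6.45e-05), against 0.28 (SE 0.114, adjusted p 0.314) in WT. The interaction of 0.67 (SE 0.157, adjusted p 0.194) did not pass, so a difference between genotypes in its PCN response was not shown. *Areg*, a ligand of the epidermal growth factor receptor, fell with PCN in *Pxr*-/-, with a difference of -1.31 (SE 0.358, adjusted p 0.0428). In WT it gave 0.36 (SE 0.376, adjusted p 0.779), and the interaction of -1.68 (SE 0.519, adjusted p 0.686) did not pass. *Pxr*-/- CONT minus WT CONT gave 1.02 for *Areg* (SE 0.358, adjusted p 0.330). The call in *Pxr*-/- was lost when any 1 of *Pxr*-/- CONT replicates 1, 2, 4, 5 and 6, *Pxr*-/- PCN replicates 1, 2, 3 and 5 and WT CONT replicate 6 was left out, with adjusted p of 0.0234 to 0.116 over the 23 fits that left out 1 array. Without the 2 arrays high in colon markers the *Pxr*-/- differences were 0.93 (adjusted p 0.00194) for *Rspo3*, 0.70 (adjusted p 0.0331) for *Grem1*, 0.90 (adjusted p 0.000639) for *Wnt4* and -1.53 (adjusted p 0.0386) for *Areg*, and the *Wnt4* genotype difference in CONT was -0.65 (adjusted p 0.0125). *Bmp4* and *Bmp2*, the brightest uncalled genes of the list, gave -0.22 and 0.024 in WT and 0.088 and 0.039 in *Pxr*-/-.

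**Figure D4:**
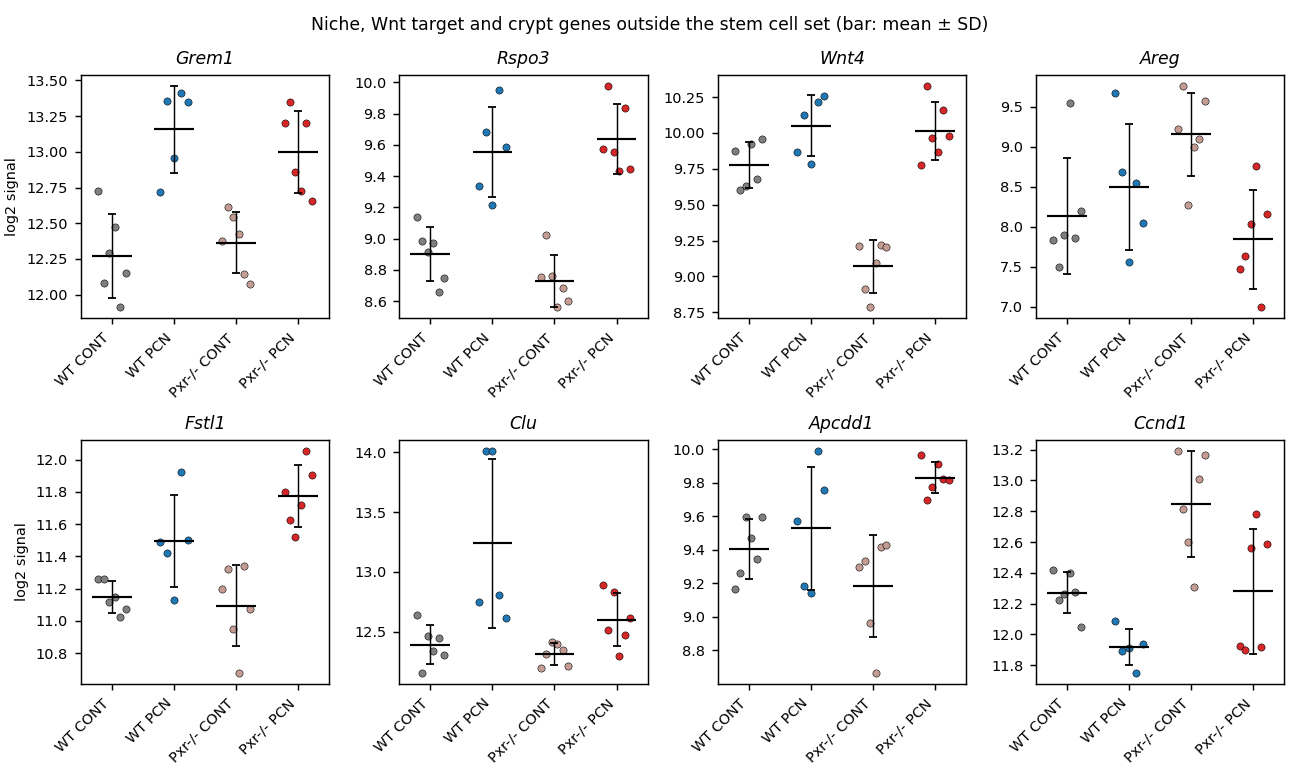
Log2 signal (vertical axis) of *Grem1*, *Rspo3*, *Wnt4*, *Areg*, *Fstl1*, *Clu*, *Apcdd1* and *Ccnd1* on each array, by group, with the group mean and SD. *Rspo3* and *Grem1* sit higher in both PCN groups, and *Wnt4* is lowest in *Pxr*-/- CONT.

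Some markers of stromal cells rose on the same arrays as *Rspo3* and *Grem1*. The mean log2 level over 6 fibroblast markers, all above background on all arrays, ran from 12.17 to 12.50 in WT CONT, 12.16 to 13.31 in WT PCN, 11.84 to 12.61 in *Pxr*-/- CONT and 12.59 to 13.34 in *Pxr*-/- PCN. All 6 had positive PCN differences in both genotypes, with a median of 0.34 in WT and 0.71 in *Pxr*-/-, and 1 (*Lum*) and 3 (*Lum*, *Col1a1* and *Col3a1*) were called. All 5 smooth muscle markers also had positive PCN differences in both genotypes, with a median of 0.34 in WT and 0.47 in *Pxr*-/-. Of them 1 (*Cnn1*) was called in *Pxr*-/- and 0 in WT (3 by unadjusted p). All 3 mesothelial markers were positive in both genotypes, and *Msln* was called in both. Of all named genes, 1.05% were called with PCN in WT, where 14.9% had an unadjusted p of at most 0.05, and 1.49% were called in *Pxr*-/-. Their part in the rise of *Rspo3*, *Grem1* and *Wnt4*, and in the *Smoc2* values, was not tested.

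Calls in the other crypt groups stand beside 1.05% of all named genes called with PCN in WT and 1.49% in *Pxr*-/-. Counts by unadjusted p stand beside 14.9% and 23.3%. Of 15 further crypt base columnar cell genes, 0 were called by limma with PCN in WT (2 at an unadjusted p of at most 0.05) and 1 in *Pxr*-/-. This was *Fstl1*, a secreted glycoprotein also made by fibroblasts, which rose by 0.68 (SE 0.121, adjusted p 0.00414). In WT *Fstl1* gave 0.35 (SE 0.127, adjusted p 0.240), and its interaction of 0.33 (SE 0.176) did not pass. *Ephb3*, a Wnt-controlled receptor that positions cells in the crypt, gave 0.14 (SE 0.115, adjusted p 0.707) and 0.16 (SE 0.110, adjusted p 0.438). *Slc12a2* gave -0.035 (SE 0.145, adjusted p 0.964) in WT and 0.15 (SE 0.138, adjusted p 0.573) in *Pxr*-/-. Of 13 further Wnt target and feedback genes, 0 were called in WT (4 by unadjusted p), and in *Pxr*-/- *Apcdd1*, an inhibitor of Wnt reception, rose by 0.65 (SE 0.141, adjusted p 0.0142). *Apcdd1* gave 0.12 (SE 0.148, adjusted p 0.818) in WT, and its interaction of 0.52 (SE 0.204) did not pass. The *Apcdd1* call in *Pxr*-/- was lost without *Pxr*-/- CONT replicate 4, at 0.54 (adjusted p 0.0258), where the fold fell under 1.5. *Ccnd1*, which encodes cyclin D1, gave -0.36 (SE 0.167, adjusted p 0.401) in WT, -0.57 (SE 0.158, adjusted p 0.0475) in *Pxr*-/- and -0.46 (SE 0.115, adjusted p 0.0146) averaged over genotypes, short of the fold of 1.5. *Lrig3*, also uncalled, had the opposite sign. It gave 0.091 (SE 0.0924, adjusted p 0.772) in WT, 0.37 (SE 0.0879, adjusted p 0.0226) in *Pxr*-/- and 0.23 (SE 0.0638, adjusted p 0.0272) averaged over genotypes. Without the 2 arrays high in colon markers *Fstl1* gave 0.70 (adjusted p 0.0108) and *Apcdd1* 0.61 (adjusted p 0.0401) in *Pxr*-/-.

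Among 7 genes of reserve or plastic crypt cells, *Clu*, a secreted chaperone that marks a damage-induced crypt cell, rose with PCN in WT by 0.85 (SE 0.205, adjusted p 0.0377) against 0.29 (SE 0.195, adjusted p 0.436) in *Pxr*-/-, with an interaction of -0.56 (SE 0.283, adjusted p 1.00). The 5 WT PCN values were 12.62, 12.75, 12.81, 14.01 and 14.01, 2 of them well above the other 3, and WT CONT had 12.16, 12.40 and 12.64 (lowest, median and highest). The call in WT was lost when any 1 of WT CONT replicates 2, 3, 4, 5 and 6 and WT PCN replicates 2 and 3 was left out, with adjusted p of 0.0137 to 0.125 over the 23 fits that left out 1 array. *Lrig1* gave 0.084 and 0.15, and *Krt19* -0.24 and -0.23. None of 11 Wnt receptors and intracellular components was called in either genotype by limma (1 in WT and 2 in *Pxr*-/- by unadjusted p), *Ctnnb1* (β-catenin) giving -0.12 (SE 0.0884, adjusted p 0.650) and -0.0026 (SE 0.0841, adjusted p 0.991) and *Gsk3b* 0.032 and 0.042. None of 10 Notch targets and lineage factors was called in either genotype (1 and 2 by unadjusted p), with *Hnf4a* at -0.17 and -0.023 and *Cdx1* at -0.10 and -0.046. Of 6 goblet cell markers, 2 (*Agr2* and *Fcgbp*) fell with PCN in *Pxr*-/- and 0 in WT (5 by unadjusted p). Over all named genes, 1.05% were called in WT and 1.49% in *Pxr*-/-, and 14.9% and 23.3% had an unadjusted p of at most 0.05.

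Within groups, most pairs of the 10 genes had a positive correlation. The share of such pairs among other named genes was not computed, so this is not shown to be particular to these genes. After the group means were removed, 35 of 45 pairs of the 10 genes had a positive correlation over the 23 arrays, with a median r of 0.232, and 8 pairs passed a permutation test adjusted over the 45 pairs, 7 positive and 1 negative. *Smoc2* and *Rnf43* had Pearson r 0.684 (p 0.00152, adjusted p 0.0386) and Spearman rho 0.611 (p 0.00509, adjusted p 0.0400). *Olfm4* and *Smoc2* had Pearson r 0.682 (p 0.00202, adjusted p 0.0386) and Spearman rho 0.701 (p 0.000670, adjusted p 0.0151). *Lgr5* and *Ascl2* had Pearson r 0.649 (p 0.00343, adjusted p 0.0386) and Spearman rho 0.6245 (p 0.00263, adjusted p 0.0394). The other positive pairs were *Lgr5* with *Prom1* (r 0.663), *Lgr5* with *Smoc2* (0.645), *Olfm4* with *Rnf43* (0.575) and *Olfm4* with *Axin2* (0.467). By Spearman rho 7 of the 8 passed, and *Olfm4* with *Axin2* did not, at 0.384 (permutation test, adjusted p 0.183). The negative pair, *Sox9* and *Prom1*, had Pearson r -0.581 (p 0.00662, adjusted p 0.0426) and Spearman rho -0.633 (p 0.00363, adjusted p 0.0400).

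The sizes of these correlations varied with the arrays used. For *Smoc2* and *Rnf43*, r was 0.626 without the 2 farthest arrays, 0.650 and 0.728 within wash batches 1 and 2, and 0.665 without the 2 arrays high in colon markers. For *Lgr5* and *Ascl2*, r was 0.472 without the 2 farthest arrays, 0.783 and 0.394 within wash batches 1 and 2, and 0.648 without the 2 arrays high in colon markers. Without the 2 farthest arrays r was 0.541 for *Olfm4* with *Smoc2*, 0.793 for *Lgr5* with *Prom1*, 0.675 for *Lgr5* with *Smoc2*, 0.563 for *Olfm4* with *Rnf43* and 0.338 for *Olfm4* with *Axin2*. For *Sox9* and *Prom1*, r was -0.463 without the 2 farthest arrays, -0.846 and -0.320 within wash batches 1 and 2, and -0.649 without the 2 arrays high in colon markers. Over the 21 arrays without the 2 high in colon markers no pair passed the adjusted threshold in the permutation test (smallest adjusted p 0.0643, 13 pairs with an unadjusted p of at most 0.05), while 35 pairs were positive and the median r was 0.264. All 10 genes were read from the same RNA on each array.

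**Figure D5:**
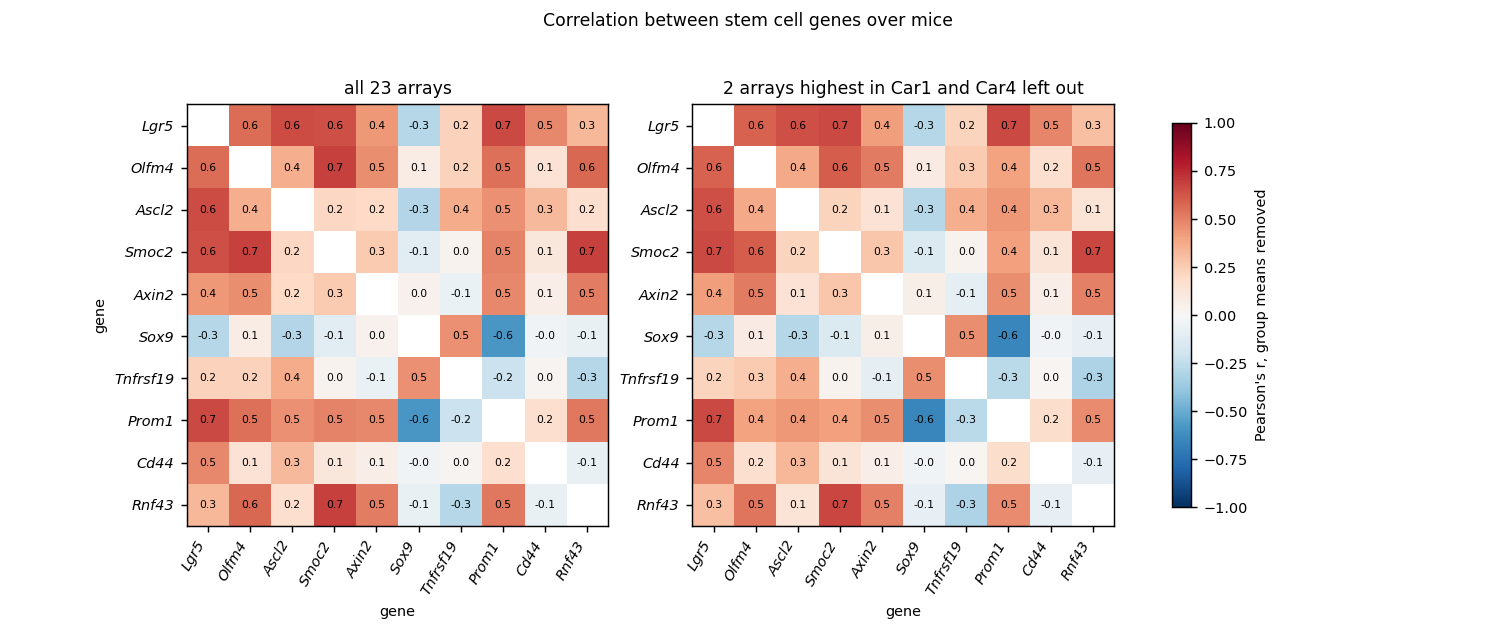
Pearson correlations between the 10 genes over 23 arrays after removal of group means, as a coloured matrix. Positive values prevail among *Lgr5*, *Ascl2*, *Smoc2*, *Olfm4* and *Rnf43*, and the lowest value is -0.581 for *Sox9* and *Prom1*.

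Of all named genes, those whose pattern over the 23 arrays was most like *Lgr5* by Pearson r were *Slc12a2* (0.852), *Scn2b* (0.852), *Mcc* (0.845), *Defa26* (0.839) and *Defa43* (0.837). *Slc12a2*, the basolateral sodium-potassium-chloride cotransporter, is on the list of further crypt base columnar cell genes, and *Defa26* and *Defa43* are α-defensin genes of Paneth cells, whose probes may bind related defensins. With the group means removed their r with *Lgr5* was 0.805 to 0.882. Those most like *Olfm4* were *Clic6* (0.837), *Gm11223* (0.823), *Srd5a1* (0.818), *Dach1* (0.814) and *Naca* (0.807). These values describe shared arrays and carry no test.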

How the data were processed

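Gene expression was measured in 23 ileum samples on single-colour Agilent arrays, which the authors read with Agilent Feature Extraction 10.10.1.1. The deposited scanner files hold the intensity of each spot on a linear scale. The deposited expression table, on the log2 scale, covers 37161 probes. To make it, the authors filtered the median spot signals by a rule not given in the sources used here, took logarithms, removed the wash batch effect and applied CrossNorm normalization. Its columns all held the same set of values, and each had a Spearman correlation of 0.9995 to 0.9997 across probes with the log2 scanner signal of its array.

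The members and the gene lists were chosen with earlier results of these data known. A limma 3.58.1 fit in R 4.3.3 held the 4 groups and the wash batch (2 batches, 1 with 3, 2, 3 and 3 arrays of the groups and the other with 3 each). Tests were 2-sided, with Benjamini-Hochberg adjustment over all 37161 probes of a contrast, and calls needing an adjusted p no higher than 0.05 with a fold above 1.5. Probes were named through the gene name on the array and RefSeq. Of each list, called genes with the largest changes and the 2 brightest uncalled genes were named, *Cyp3a11* and *Nr1i2* whatever they showed, and a gene is represented by its brightest probe. Genes singled out besides these, such as the called cell type markers, were chosen after their values were seen. Correlations used 100000 permutations. Alternatives were 4 treatments of the scanner signal, a filter on dim probes, slide, wash batch and replicate number as terms, subsets of the arrays and second probes. The 5 or 6 arrays per group limit the precision. Whether a probe lies in a coding or untranslated exon was not analysed here.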

Additional observations from a re-analysis of the deposited data

Results flagged for a closer look

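*Cyp3a11* responded to PCN differently in the 2 genotypes, with an interaction of -3.57 (SE 0.447, adjusted p 0.000818) by limma, the PCN differences being 3.53 in WT and -0.048 in *Pxr*-/-. The gene is a known PXR target and not one of the stem cell genes.

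Within groups, single arrays stood far from the rest by Dixon's test at the 95% level. For *Olfm4*, *Pxr*-/- PCN replicate 2 was lowest at 9.10, and this array also had the lowest *Lgr5*, *Ascl2* and *Axin2* values of its group. For *Cd44*, *Pxr*-/- PCN replicate 4 was highest at 10.01. For *Areg*, WT CONT replicate 4 was highest at 9.55, and for *Bmp4*, *Pxr*-/- CONT replicate 4 was lowest at 11.16. Chance marks about 1 in 20 groups, which gives 2 of the 40 groups tested for the 10 genes, where 2 were marked, and 4.2 of the 84 tested for other named genes, where 2 were marked.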

How the results depend on the processing

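The count of called members was 0 in each of the 6 comparisons under the settings tried, with 3 exceptions. Without the fold threshold it was 1 for PCN in *Pxr*-/- and 2 for PCN averaged over genotypes, and it ranged from 0 to 1 for PCN in WT over the fits that left out 1 array. With the replicate number as a block it was 0 in all 6 comparisons. The numbers share no stated origin. The deviations of the 33 same-numbered pairs of arrays correlated at a median of -0.032 (-0.21 to 0.43), and 8 of 23 arrays matched best an array of their own number. The consensus correlation within slides was 0.0554. Of the correlations between members, 8 passed on the deposited values, 6 on the scanner signals and 0 without the 2 arrays high in colon markers, both added after seeing the data.

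24 of 60 single-gene differences turned sign under at least 1 setting, none of them called and none over 0.27 in size in the main fit. The turned values were up to 0.29 in size, and the cause was not tested. Without the 2 arrays high in colon markers, an alternative added after seeing the data, the values that turned were PCN in *Pxr*-/- (*Ascl2* -0.081, *Olfm4* -0.032), and interaction (*Rnf43* -0.025). With median centring alone, the values that turned were PCN in *Pxr*-/- (*Ascl2* -0.013). With the slide as a fixed block, the values that turned were PCN in *Pxr*-/- (*Ascl2* -0.10), and genotype in CONT (*Cd44* 0.0037), and PCN in WT (*Lgr5* 0.021, *Prom1* 0.027), and PCN averaged (*Olfm4* 0.011), and genotype under PCN (*Tnfrsf19* -0.038). Within wash batch 2, the values that turned were PCN in *Pxr*-/- (*Ascl2* -0.17, *Rnf43* 0.022), and PCN averaged (*Olfm4* 0.094, *Rnf43* 0.090, *Sox9* 0.024), and PCN in WT (*Prom1* 0.0078, *Rnf43* 0.16), and genotype in CONT (*Prom1* -0.15, *Sox9* 0.013), and interaction (*Rnf43* -0.14). By the second brightest probe, the values that turned were genotype in CONT (*Axin2* 0.055, *Cd44* 0.088), and interaction (*Axin2* -0.020, *Rnf43* -0.044), and genotype under PCN (*Lgr5* 0.21, *Tnfrsf19* -0.16), and PCN in *Pxr*-/- (*Sox9* -0.0052, *Tnfrsf19* 0.010). Within wash batch 1, the values that turned were genotype under PCN (*Lgr5* 0.0082, *Olfm4* -0.10, *Prom1* 0.082, *Rnf43* 0.013, *Sox9* -0.18, *Tnfrsf19* -0.29), and PCN in *Pxr*-/- (*Olfm4* -0.057, *Sox9* -0.0053). With the replicate number as a block, the values that turned were PCN averaged (*Olfm4* 0.0064), and PCN in WT (*Prom1* 0.052), and genotype under PCN (*Tnfrsf19* -0.0043). With normexp background correction (offset 50), the values that turned were PCN in WT (*Prom1* 0.022), and PCN in *Pxr*-/- (*Rnf43* 0.0093). With the scanner's processed signal scaled to the 75th percentile, the values that turned were PCN in WT (*Prom1* 0.038), and PCN in *Pxr*-/- (*Rnf43* 0.0058). With the slide as a random block, the values that turned were PCN in WT (*Prom1* 0.00023). Over the fits that left out 1 array, the values that turned ranged, for PCN in *Pxr*-/-, *Ascl2* -0.10 to 0.19, *Olfm4* -0.029 to 0.27, *Rnf43* -0.083 to 0.037, *Sox9* -0.024 to 0.14, and for genotype in CONT, *Cd44* -0.12 to 0.019, *Prom1* -0.032 to 0.21, and for PCN averaged, *Lgr5* -0.0022 to 0.15, *Olfm4* -0.086 to 0.070, *Rnf43* -0.061 to 0.026, and for genotype under PCN, *Lgr5* -0.10 to 0.13, *Olfm4* -0.032 to 0.18, *Sox9* -0.063 to 0.11, *Tnfrsf19* -0.079 to 0.086, and for PCN in WT, *Prom1* -0.15 to 0.097, *Rnf43* -0.10 to 0.071, and for interaction, *Rnf43* -0.089 to 0.085. For the 13 called differences of niche and crypt genes, the call held in 272 fits that left out 1 array and was lost in 27, and it held in 135 and was lost in 31 under the other settings. With the replicate block *Clu* in WT lost its call (0.84, adjusted p 0.0635) and no other of these calls changed. Dim signal limits *Rnf43* probe 2, above background on 16 of 23 arrays.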
